A study of Mus musculus with 8 samples.

Results

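The genes described here build the uterine extracellular matrix and hold cells to it. They are the collagens, the laminins, nidogen and perlecan of the basement membrane, the integrin receptors, and the proteins that fold, trim and bind collagen. Members were chosen by gene name, and 41 of the 5828 genes listed in the authors' tables fitted the names, out of 91 annotated mouse genes whose names fit. The other 50 names are not analysed here. Collagen chains wind into triple helices. The fibrillar collagens give the stroma its tensile strength, and collagen IV forms, together with laminin, the sheet that underlies every epithelium and surrounds vessels and smooth muscle cells. Integrins are receptors of an alpha and a beta subunit that bind these proteins and link them to the cytoskeleton. In the uterus this matrix is laid down and remodelled with each cycle of ovarian hormones.

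Uteri of 4 Ezh2cKO mice (KO, genotype EZ fl/fl; Prcre/+) were set against uteri of 4 mice called WT by the authors (EZ fl/fl). Ezh2 encodes an enzyme that places a repressive methyl mark on histone H3. The floxed Ezh2 alleles are thus carried by both groups, and the Cre, expressed from the progesterone receptor locus in cells that use that gene, by KO alone. All 8 females were on a mixed C57BL/6 and 129SvEv background, were ovariectomized at postnatal day 71 ± 4 and gave their uteri at day 112 ± 11, and each of the litters used gave 1 mouse of either genotype. Sections of 10 µm were profiled by Visium, in which barcoded spots capture the messenger RNA of the tissue above them, and the authors pooled spots into KO epithelium, WT epithelium, KO stroma and WT stroma. Each pool gives 1 value per gene, so the error printed here is a 95% counting interval of the transcripts counted (UMIs) and holds no spread between animals. A difference in RNA per cell and a difference in the number of cells of a type cannot be told apart in such spots.

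The pools held 1552958 UMIs in KO and 1428541 in WT epithelium, and 947663 in KO and 416747 in WT stroma over the genes listed for each. Relative to WT epithelium, KO epithelium had a depth of 1.08, KO stroma of 0.791 and WT stroma of 0.393. Levels below are UMIs divided by this relative depth and are called scaled UMIs. They follow 1 gene across pools and are not set between genes. Ezh2 itself is in none of the lists, so the deletion was not checked on its transcript. Pgr, the progesterone receptor gene from whose locus the Cre is expressed, was listed. Its KO over WT log2 ratio was -0.21 in epithelium and -0.13 in stroma, with no call. Any part of the Cre, carried by KO alone, in the KO over WT ratios was not tested. Of all genes, 5.43% in KO and 13.1% in WT were called higher in epithelium than in stroma. Markers of simple uterine epithelium were so called for 15 of the 15 listed in KO and 11 of the 11 listed in WT. Many of these markers had an average below 1 in stroma and were listed through epithelium alone. Their summed average was 89.9 in KO epithelium and 28.2 in KO stroma, and 61.6 in WT epithelium and 7.62 in WT stroma, so epithelial transcripts were also present in spots named stroma. Endometrial stroma markers summed to 59.2 in KO epithelium and 137 in KO stroma, and to 29.2 in WT epithelium and 108 in WT stroma.

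Calls rest on the adjusted p-value (FDR) that the authors deposited, with 0.05 as the threshold. The test behind it was not given in the sources used here. Whether this FDR covers any spread between animals is thus not known, and a call is not shown to hold across animals. Between genotypes in epithelium 0 of the 41 members were called, beside 0.120% of all listed genes (0.0688% higher and 0.0516% lower in KO), and the lowest FDR of a member in the authors' deposited table was 0.111. Raw p-values are not among the columns used here. In stroma 1 of 18 listed members was called, higher in KO, beside 1.51% of all genes (0.756% higher and 0.756% lower). Between KO epithelium and KO stroma 2 of 29 were called, both higher in epithelium, beside 9.88% of all genes (5.43% higher and 4.45% lower). Between WT epithelium and WT stroma 9 of 20 were called, beside 28.8% of all genes, 2 higher in epithelium and 7 lower (13.1% and 15.7% of all genes). An FDR under 0.01 left 0 members in epithelium and 0 in stroma between genotypes, beside 0.0344% and 0.840% of all genes, 1 between compartments in KO beside 6.38% and 5 in WT beside 21.8%. An absolute log2 ratio of at least 1 left 0 and 1 between genotypes, beside 0.120% in epithelium and 1.51% in stroma, 1 in KO beside 7.87% and 5 in WT beside 21.7%. Without the lowest 25% of genes by UMIs there were 0 and 1 between genotypes, beside 0.137% in epithelium and 1.12% in stroma, 1 in KO beside 8.98% and 5 in WT beside 23.3%. In all, 11 members were called in at least 1 table and 30 in none. Every gene listed had an average of about 1 or more in at least 1 group of its table, and 37 of 41 members in the epithelium table and 15 of 18 in the stroma table were above 1 in both genotypes. Between compartments 21 of 29 members in KO and 14 of 20 in WT were above 1 in both groups, and 5 of the 9 calls in WT (Lama5, Col4a1, Col4a2, Nid1 and Col16a1) were of genes listed through 1 group alone.

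Sequence is shown for the genes on which the results turn. Col4a1 and Col4a2 are printed because they lie head to head and had similar shares in the 4 pools. Col6a4 is printed because it was the member called between genotypes. Col4a2 (chromosome 8, 11312805 to 11449287, plus strand) and Col4a1 (11198423 to 11312826, minus strand) overlap by 22 bases in GENCODE M21 on GRCm38, and these are in capitals in the first sequence. The second lies upstream of the annotated starts of Col6a4 (chromosome 9, 105989454 to 106096783, minus strand) and has in capitals the matches to CCAAT and to GGGCGG on either strand. Both come from RefSeq on GRCm38.p6.
Col4a2 and Col4a1 shared start, chr8:11312801-11312830, plus strand: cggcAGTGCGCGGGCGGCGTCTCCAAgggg
Col6a4 upstream, chr9:106096784-106096941, minus strand: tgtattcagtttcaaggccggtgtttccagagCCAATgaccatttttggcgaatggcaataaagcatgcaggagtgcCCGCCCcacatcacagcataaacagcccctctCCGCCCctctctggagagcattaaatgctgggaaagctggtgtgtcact

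RefSeq promoter windows, from 250 bases before to 50 after each start, were found for 32 of the 41 members (36 windows). GGGCGG, read on both strands, was in 25 of these windows (69.4%), beside 35.7% of all 32851 windows. CCAAT was in 33.3% of member windows and 37.4% of all windows, and TATAAA in 5.56% and 13.6%. The median ratio of observed to expected CpG was 0.544 in member windows and 0.384 in all windows. The 158 bases shown for Col6a4 hold 4 CpG, while the 30 bases shown at the Col4a2 and Col4a1 start hold 5. A match of letters is a description of these windows and not a binding site. All windows also cover genes that were not listed here, so a difference from them is not shown to be particular to these members.

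Collagen VI, a microfibril-forming collagen that sits between basement membranes and fibrils, held the member that changed between genotypes. Col6a4, which encodes an alpha chain of collagen VI, reached 449 scaled UMIs in KO and 192 in WT epithelium, and 711 in KO and 295 in WT stroma. Both KO pools stood above both WT pools. Col6a4 rose in KO stroma by 2.41-fold (1.97 to 2.97), from counts of 563 UMIs in KO and 116 in WT, with an FDR of 0.0211 in the authors' deposited table. In epithelium its KO over WT ratio was 2.34 (1.98 to 2.78), which the authors' deposited table gives an FDR of 0.111 and which was not called. Col6a1, a chain found in every collagen VI molecule, had 518 scaled UMIs in KO and 370 in WT epithelium, and 646 in KO and 389 in WT stroma. Col6a2, its obligate partner, had 564 in KO and 364 in WT epithelium, and 656 in KO and 384 in WT stroma. The KO over WT ratio of Col6a1 was 1.40 (1.22 to 1.60) in epithelium and 1.66 (1.38 to 2.00) in stroma, and that of Col6a2 was 1.55 (1.36 to 1.77) and 1.71 (1.42 to 2.06). In stroma the authors' deposited table gives both an FDR of 0.581. Col6a3, the large chain of the classical trimer, was listed between genotypes in epithelium alone, at a ratio of 1.29 (0.950 to 1.75), an interval that includes 1.

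The proportion of Col6a4 to Col6a1 differed between the genotypes, as the plot of paired genes shows. Of the UMIs of Col6a4 and Col6a1 together, Col6a4 took 46.5% in KO epithelium (43.4% to 49.5%), against 34.2% in WT epithelium (30.2% to 38.2%). In stroma it took 52.4% in KO (49.4% to 55.4%) and 43.1% in WT (37.1% to 49.3%). The intervals of KO and WT are apart in both compartments, only just so in stroma. The Col6a1 share of the UMIs of Col6a1 and Col6a2 was 47.9% in KO and 50.4% in WT epithelium, and 49.6% in KO and 50.3% in WT stroma, with overlapping intervals. Between compartments Col6a4 was 1.58-fold lower in KO epithelium than in KO stroma (1.40 to 1.79) and 1.54-fold lower in WT epithelium than in WT stroma (1.21 to 1.94), with FDRs of 0.106 in KO and 0.166 in WT in the authors' deposited tables.

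**Figure D1:**
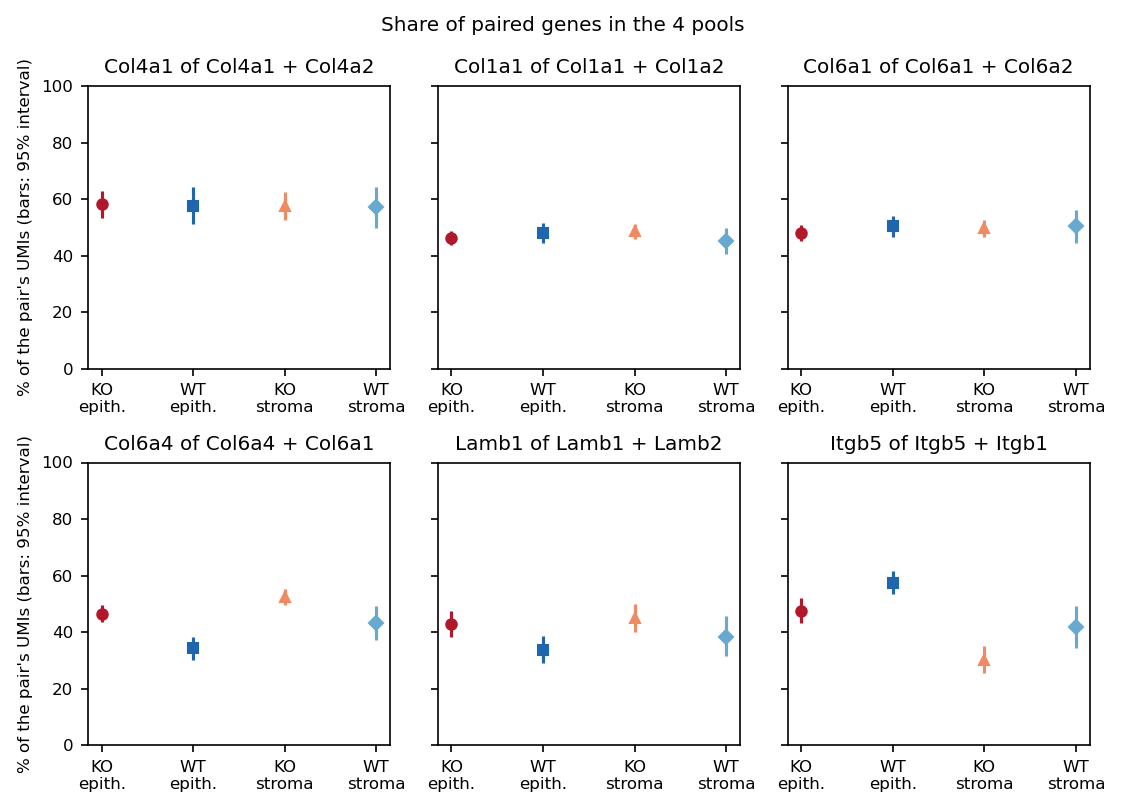
Share of the first gene in the UMIs of each pair (vertical axis, percent) in the KO epithelium, WT epithelium, KO stroma and WT stroma pools (horizontal axis), with 95% Clopper-Pearson intervals as bars. The Col4a1 share lies between 57.0% and 58.1% in the 4 pools, whereas the Col6a4 share is higher in each KO pool than in its WT pool.

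Fibrillar collagens, the main load-bearing proteins of the stroma, had higher values in KO throughout, with no call. Col3a1, which encodes the collagen of compliant tissues, had 1037 scaled UMIs in KO and 597 in WT epithelium, and 1395 in KO and 963 in WT stroma. Col1a2, a chain of collagen I, had 762 in KO and 416 in WT epithelium, and 985 in KO and 694 in WT stroma. Its partner chain Col1a1 had 651 in KO and 382 in WT epithelium, and 927 in KO and 572 in WT stroma. For these 3 genes KO epithelium stood above WT epithelium and slightly above WT stroma. No counting interval was computed for KO epithelium against WT stroma, so that order is a description. The KO over WT ratio in epithelium was 1.74 (1.57 to 1.92) for Col3a1, 1.83 (1.63 to 2.07) for Col1a2 and 1.71 (1.50 to 1.94) for Col1a1. In stroma it was 1.45 (1.29 to 1.63) for Col3a1, 1.42 (1.24 to 1.64) for Col1a2 and 1.62 (1.39 to 1.89) for Col1a1. Counting intervals exclude 1 for each, but in the authors' deposited table the FDR lies between 0.656 for Col1a2 in epithelium and 0.939 for Col1a2 in stroma. Col5a1 and Col5a2, chains of the collagen V that starts fibrils, had ratios in epithelium of 1.70 (1.24 to 2.35) and 1.65 (1.18 to 2.33).

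Between compartments the fibrillar collagens lay toward stroma, with calls in WT. In KO, Col3a1 was 1.34-fold lower in epithelium than in stroma (1.24 to 1.46) and Col1a2 1.29-fold lower (1.17 to 1.43), neither of them called. In WT, Col3a1 was 1.61-fold lower (1.42 to 1.84, FDR of 0.0391 in the authors' deposited table) and Col1a2 1.67-fold lower (1.43 to 1.95, FDR 0.0254). Col1a1 was 1.42-fold lower in KO epithelium (1.28 to 1.58) and 1.50-fold lower in WT epithelium (1.26 to 1.77), with no call in either. The Col1a1 share of the UMIs of Col1a1 and Col1a2 was 46.1% in KO and 47.9% in WT epithelium, and 48.5% in KO and 45.2% in WT stroma, with overlapping intervals.

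**Figure D2:**
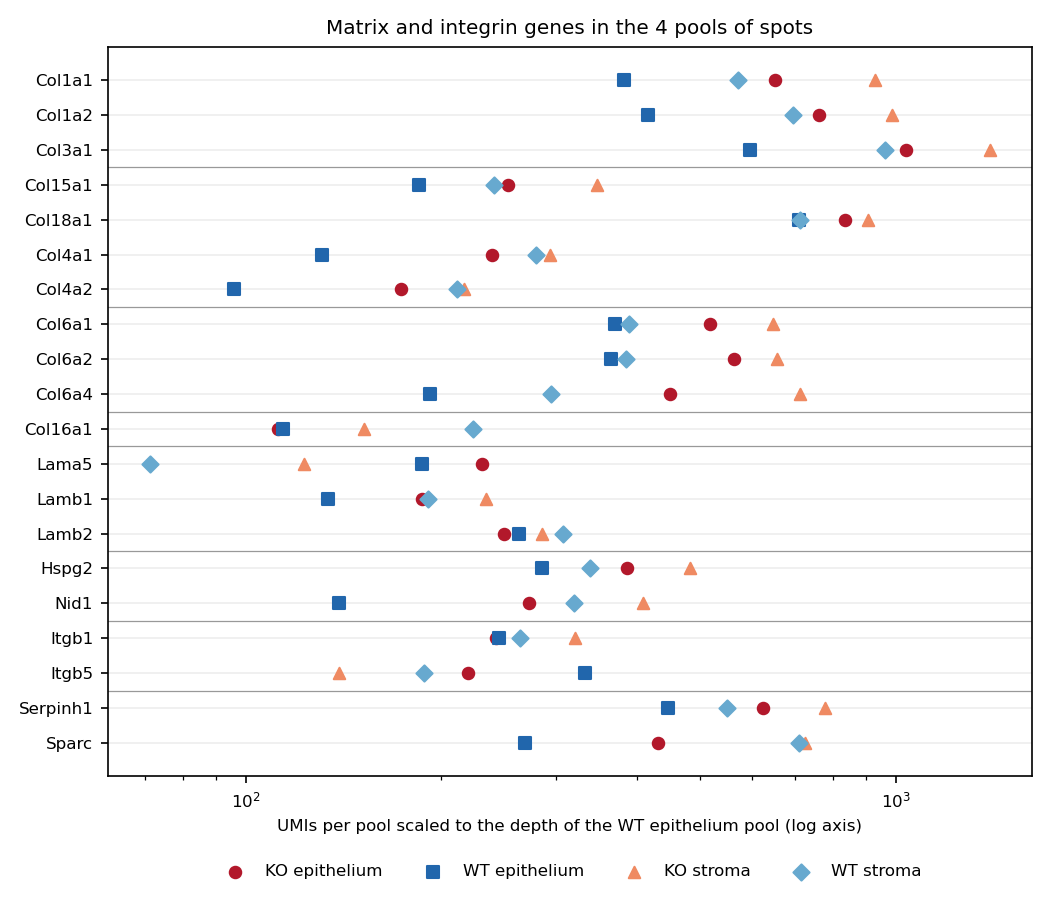
Level of the 20 members that have a value in all 4 pools, in UMIs scaled to the depth of the WT epithelium pool (horizontal log axis), by gene (vertical axis, grouped by role), with 1 symbol per pool. KO stroma is the highest pool for most collagens and WT epithelium the lowest, with Col3a1 at 1395 scaled UMIs in KO stroma and 597 in WT epithelium.

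Basement membrane collagens split by gene. Col4a1 and Col4a2, the chains that build the collagen IV network of nearly all basement membranes, had their lowest level in WT epithelium, with the other 3 pools nearer each other. Col4a1 had 239 scaled UMIs in KO and 131 in WT epithelium, and 294 in KO and 280 in WT stroma. Col4a2 had 173 in KO and 96.0 in WT epithelium, and 217 in KO and 211 in WT stroma. The KO over WT ratio of Col4a1 was 1.82 (1.47 to 2.27) in epithelium and 1.05 (0.836 to 1.33) in stroma, and that of Col4a2 was 1.80 (1.40 to 2.32) and 1.03 (0.788 to 1.36). Neither gene was called between genotypes, with an FDR of 0.767 for Col4a1 in epithelium in the authors' deposited table. In KO, Col4a1 was 1.23-fold lower in epithelium than in stroma (1.03 to 1.48) and Col4a2 1.26-fold lower (1.02 to 1.56), with no call. In WT both were called, with Col4a1 at 2.13-fold lower (1.64 to 2.77, FDR 0.00311 in the authors' deposited table) and Col4a2 at 2.20-fold lower (1.62 to 2.98, FDR 0.00549). Both entered the WT table through stroma alone, where they are high, with averages in epithelium and stroma of 0.739 and 1.58 for Col4a1 and of 0.542 and 1.19 for Col4a2, so their listing favoured a difference. The Col4a1 share of their UMIs was 58.1% in KO and 57.7% in WT epithelium, and 57.5% in KO and 57.0% in WT stroma.

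Col18a1, whose C-terminal fragment is endostatin, differed little between compartments. It had 835 scaled UMIs in KO and 710 in WT epithelium, and 906 in KO and 712 in WT stroma. Its epithelium over stroma ratio was 0.922 (0.835 to 1.02) in KO and 0.998 (0.867 to 1.15) in WT, and both intervals include 1. Its KO over WT ratio was 1.18 (1.06 to 1.30) in epithelium and 1.27 (1.11 to 1.47) in stroma, with no call in either. Col15a1, its close relative in vessel and muscle basement membranes, had 253 scaled UMIs in KO and 185 in WT epithelium, and 347 in KO and 241 in WT stroma, with a KO over WT ratio of 1.37 (1.13 to 1.66) in epithelium and 1.44 (1.14 to 1.84) in stroma. The X-linked chains Col4a5 and Col4a6 and the anchoring fibril collagen Col7a1 were listed in epithelium alone, with KO over WT ratios of 1.35, 1.31 and 1.12 and intervals that include 1. Col4a5 and Col4a6 also lie head to head, 1308 bases apart, with a Col4a5 share of 51.8% in KO epithelium and 51.0% in WT epithelium. Col16a1, a collagen attached to other fibrils and networks, was the collagen with lower values in KO, though in epithelium it lay above the median gene once ratios were centred. It had 112 scaled UMIs in KO and 114 in WT epithelium, and 152 in KO and 224 in WT stroma, so the genotypes stood apart in stroma, at 1.48-fold lower in KO (1.11 to 1.96, FDR 1.00 in the authors' deposited table). Between compartments, Col16a1 was 1.36-fold lower in KO epithelium (1.05 to 1.76) without a call, and fell in WT epithelium by 1.96-fold (1.47 to 2.61, FDR 0.0367 in the authors' deposited table), where it was listed through stroma alone (averages of 0.643 in epithelium and 1.26 in stroma).

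Nidogen and perlecan join the laminin and collagen IV layers of a basement membrane. Nid1, which encodes nidogen-1, had 273 scaled UMIs in KO and 139 in WT epithelium, and 409 in KO and 320 in WT stroma. WT epithelium again stood below the other pools. The KO over WT ratio of Nid1 was 1.96 (1.60 to 2.42) in epithelium and 1.28 (1.04 to 1.58) in stroma, and the authors' deposited table gives an FDR of 0.634 in epithelium. In KO, Nid1 was 1.50-fold lower in epithelium than in stroma (1.28 to 1.76), with an FDR of 0.236 in the authors' deposited table. In WT it was 2.30-fold lower (1.80 to 2.95, FDR 0.00100), where it was listed through stroma alone (averages of 0.784 in epithelium and 1.81 in stroma). Hspg2, which encodes perlecan, had 386 scaled UMIs in KO and 286 in WT epithelium, and 483 in KO and 338 in WT stroma, with KO over WT ratios of 1.35 (1.16 to 1.57) in epithelium and 1.43 (1.17 to 1.75) in stroma.

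Laminins, trimers of an alpha, a beta and a gamma chain on which the basement membrane assembles, included the member called between compartments in both genotypes. Lama5, the alpha chain of the laminins most common under adult epithelia, had the largest epithelium over stroma ratio of the members listed in both genotypes. It had 231 scaled UMIs in KO and 187 in WT epithelium, and 123 in KO and 71.2 in WT stroma. In KO, Lama5 was 1.88-fold higher in epithelium than in stroma (1.48 to 2.40, FDR 0.0316 in the authors' deposited table). In WT it was 2.63-fold higher (1.76 to 4.06, FDR 0.00157), but with averages of 1.06 in epithelium and 0.402 in stroma it entered the WT table through epithelium alone, where it is high, so this call is no support of its own. Its KO over WT ratio was 1.23 (1.02 to 1.50) in epithelium, and 1.72 (1.12 to 2.72) in stroma from counts of 97 UMIs in KO and 28 in WT, where the authors' stroma table does not list it.

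Lama2 and Lama4, the alpha chains of muscle and vessel laminins, lay the other way. In KO their epithelium over stroma ratios were 0.735 (0.580 to 0.932) for Lama2 and 0.556 (0.401 to 0.767) for Lama4, without a call. The Lama5 share of Lama5 and Lama2 UMIs was 63.1% in KO epithelium (58.2% to 67.9%), 63.4% in WT epithelium (57.6% to 68.9%) and 40.1% in KO stroma (33.9% to 46.6%). The KO intervals of the compartments are apart, while those of the genotypes in epithelium nearly coincide. The beta chains had another pattern. Lamb1 had 187 scaled UMIs in KO and 134 in WT epithelium, and 234 in KO and 191 in WT stroma, while Lamb2 had 250 in KO and 263 in WT epithelium, and 286 in KO and 308 in WT stroma. Lamb1 was higher in each KO pool, whereas Lamb2 was lower in each, but above the median gene in epithelium once ratios were centred. The KO over WT ratio was 1.40 (1.12 to 1.75) in epithelium and 1.23 (0.933 to 1.63) in stroma for Lamb1, and 0.951 (0.799 to 1.13) and 0.928 (0.741 to 1.17) for Lamb2. Lamb1 took 42.8% of the pair's UMIs in KO epithelium (38.3% to 47.4%) and 33.8% in WT epithelium (29.1% to 38.6%), intervals that overlap slightly. Lama3 and Lamb3, laminin chains of epithelia, were listed in epithelium alone, with KO over WT ratios of 1.13 and 0.778. Lamc1, the gamma chain of most laminins, had a ratio of 1.16 (0.903 to 1.49) there, and these 3 intervals include 1.

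**Figure D3:**
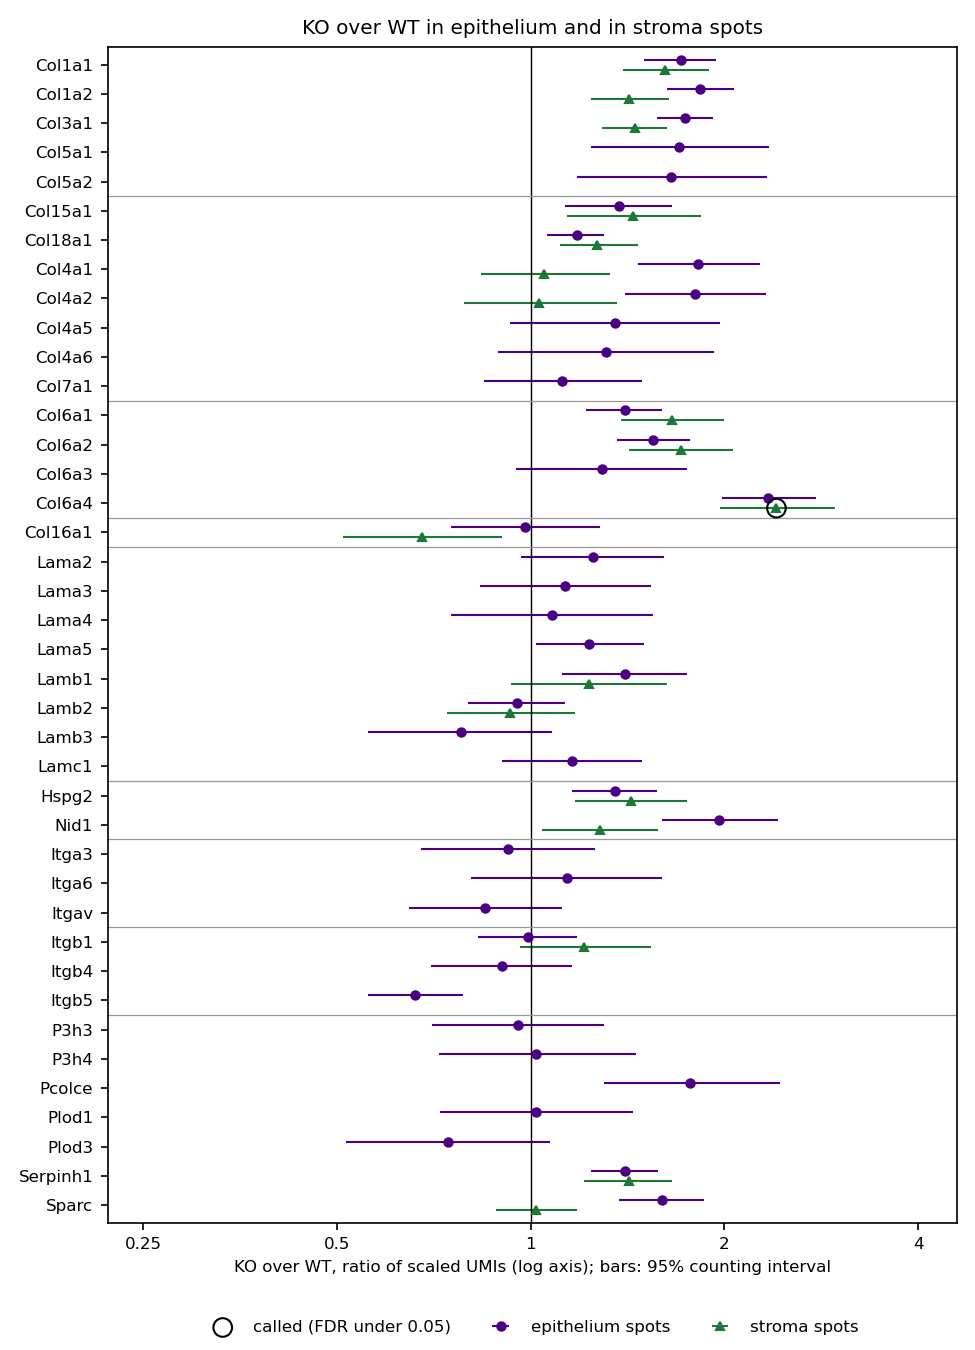
Ratio of KO over WT scaled UMIs (horizontal log axis) for members in epithelium spots and the 18 in stroma spots, by gene (vertical axis, grouped by role), with 95% counting intervals as bars and called genes ringed. Collagens, Nid1 and Hspg2 lie mostly to the right of 1, with Col6a4 at 2.34 in epithelium and 2.41 in stroma, while integrins lie around or left of 1.

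Integrin genes had lower or near equal values in KO epithelium for most subunits. Itgb1, the beta subunit of most collagen and laminin receptors, had 243 scaled UMIs in KO and 245 in WT epithelium, and 321 in KO and 264 in WT stroma. Its KO over WT ratio was 0.991 (0.829 to 1.18) in epithelium and 1.21 (0.963 to 1.54) in stroma. Itgb5, which pairs with alpha v to bind vitronectin, had 220 in KO and 332 in WT epithelium, and 139 in KO and 188 in WT stroma. Itgb5 was the member in epithelium whose counting interval lay below 1, at 1.51-fold lower in KO (1.28 to 1.79), with an FDR of 1.00 in the authors' deposited table. In stroma it was 1.35-fold lower in KO (0.994 to 1.83), from counts of 110 UMIs in KO and 74 in WT, and the authors' stroma table does not list it. Within KO, Itgb5 was 1.58-fold higher in epithelium than in stroma (1.26 to 2.00), with an FDR of 0.209 in the authors' deposited table. Within WT it was 1.76-fold higher (1.37 to 2.30), and its FDR there was just under the threshold. Itgb5 took 47.5% of the UMIs of Itgb5 and Itgb1 in KO epithelium (43.1% to 52.0%), against 57.5% in WT epithelium (53.4% to 61.6%). In stroma it took 30.2% in KO (25.5% to 35.2%) and 41.6% in WT (34.2% to 49.2%), where the intervals overlap.

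Itgb4, the hemidesmosome subunit that binds laminin through alpha 6, was called higher in KO epithelium than in KO stroma, by 2.69-fold (1.83 to 4.05, FDR 0.00216 in the authors' deposited table), from 125 UMIs in KO epithelium and 34 in KO stroma. It entered that table through epithelium alone and has no WT stroma value. Between genotypes in epithelium Itgb4 had 115 scaled UMIs in KO and 128 in WT, a ratio of 0.901 (0.699 to 1.16). The alpha subunits were listed at 73.8 in KO epithelium and 65.0 in WT epithelium for the laminin receptor subunit Itga6, 77.5 in KO and 84.0 in WT for the laminin receptor subunit Itga3, and 96.9 in KO and 114 in WT for Itgav, which binds vitronectin and fibronectin. None of these pairs stands apart beyond counting error. Among the 6 listed integrin genes, 1 had a higher and 5 a lower value in KO epithelium, where the median gene also had a log2 ratio of -0.10, and Itgb1 lay above it once ratios were centred.

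Genes of collagen maturation had ratios on both sides of 1. Serpinh1, which encodes the collagen chaperone HSP47, had 624 scaled UMIs in KO and 446 in WT epithelium, and 778 in KO and 549 in WT stroma. Its KO over WT ratio was 1.40 (1.24 to 1.58) in epithelium and 1.42 (1.21 to 1.66) in stroma. Sparc, a secreted protein that binds collagen, had 430 in KO and 269 in WT epithelium, and 724 in KO and 709 in WT stroma. Its ratio was 1.60 (1.37 to 1.86) in epithelium but 1.02 (0.883 to 1.18) in stroma. In KO, Sparc was 1.68-fold lower in epithelium than in stroma (1.49 to 1.91, FDR 0.0611 in the authors' deposited table). In WT it was 2.64-fold lower (2.22 to 3.13, FDR 5.59e-07), the lowest epithelium over stroma ratio of the 20 members there. Pcolce, an enhancer of the protease that trims procollagen, had a ratio of 1.77 (1.30 to 2.44) in epithelium. Genes whose products take part in modifying collagen in the endoplasmic reticulum had ratios near or below 1. P3h3, P3h4, Plod1 and Plod3 had ratios of 0.955, 1.02, 1.02 and 0.743 with intervals that include 1.

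**Figure D4:**
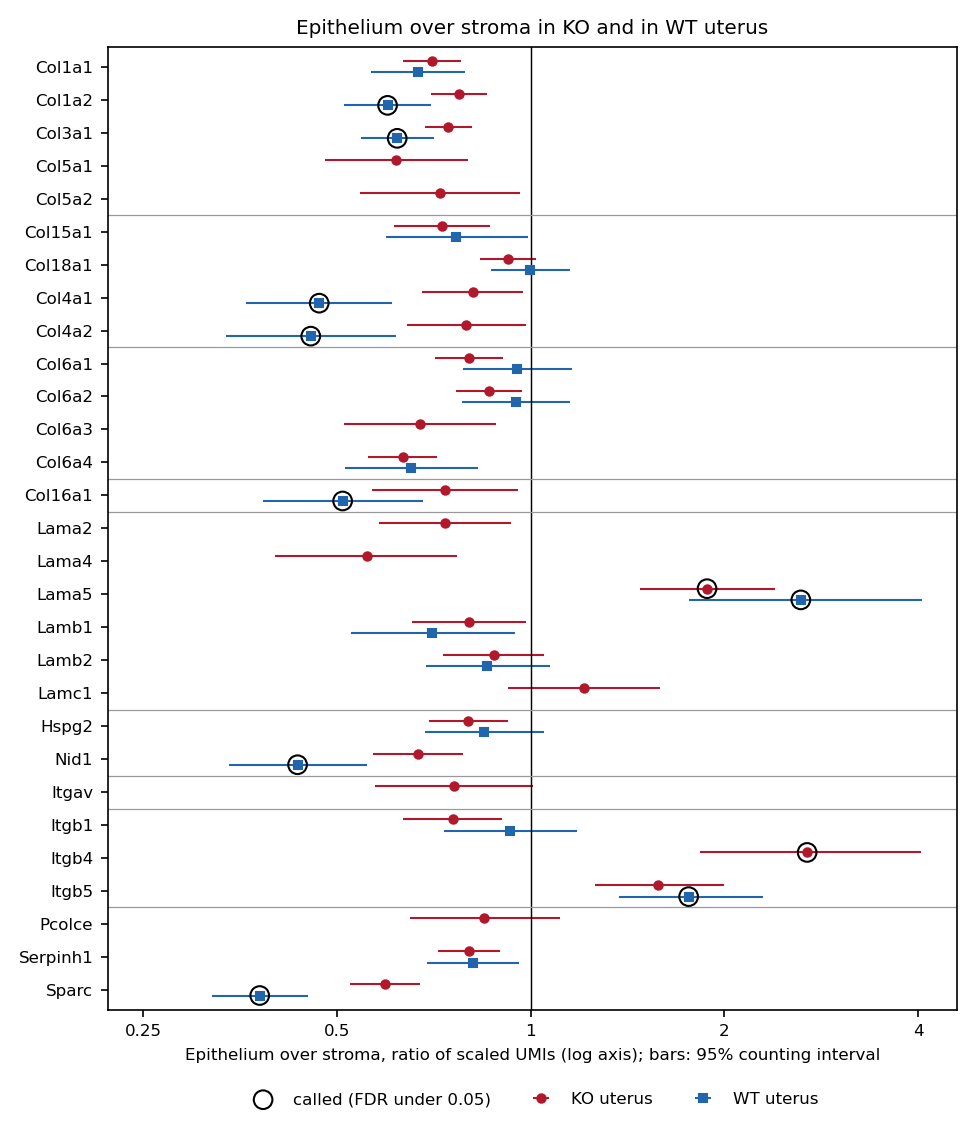
Ratio of epithelium over stroma scaled UMIs (horizontal log axis) for the 29 members listed in KO uterus and the 20 in WT uterus, by gene (vertical axis, grouped by role), with 95% counting intervals as bars and called genes ringed. Lama5, Itgb4 and Itgb5 lie right of 1, and the KO intervals of Col4a1, Col4a2, Nid1 and Sparc lie closer to 1 than and apart from the WT ones.

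The genotype ratios of the compartments can be set side by side. Of 18 members listed in both genotype tables, Col4a1, Col4a2, Nid1 and Sparc had counting intervals that did not overlap between compartments, each with the larger KO over WT ratio in epithelium. Among all 1185 genes listed in both tables, 218 (18.4%) had intervals apart, 97 of them (8.19%) with the larger ratio in epithelium, so intervals that lie apart are not particular to these members. The epithelium over stroma ratios hold the same 4 sums of each gene, so the same genes stand apart between KO and WT there, which adds no separate evidence. Of 9 members called between compartments in WT, 1 was called in KO (Lama5), and of all 486 genes called in WT and also listed in KO, 208 (42.8%) were called there. A test of the difference between compartments would need values per animal and was not run. KO stroma, KO epithelium, WT stroma and WT epithelium was the order from high to low for 10 of the 20 members with all 4 values, the collagens I, III, VI, XV and XVIII with Hspg2 and Serpinh1. For Col4a1, Col4a2, Lamb1, Nid1 and Sparc, 5 in all, WT stroma stood above KO epithelium. Some steps of these orders are small. Col18a1 had 712 scaled UMIs in WT stroma and 710 in WT epithelium, and Lamb1 had 191 in WT stroma and 187 in KO epithelium. The orders are descriptions without a test.

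Over the whole set, 30 of 41 members had a higher value in KO epithelium than in WT epithelium, with a median log2 ratio of 0.32, where 2045 of all 5811 genes were higher and the median was -0.10. In stroma 16 of 18 were higher in KO, with a median of 0.43, where 544 of 1191 genes were higher and the median was -0.05. These are descriptions of genes chosen by name from 1 pool per group. By role the medians in epithelium were 0.77 for 5 fibrillar collagens, 0.56 for 4 collagen VI chains, 0.43 for 7 basement membrane collagens, 0.70 for Nid1 and Hspg2, 0.18 for 9 laminins, 0.03 for 7 maturation genes, -0.03 for Col16a1, -0.12 for 3 integrin alpha subunits and -0.15 for 3 integrin beta subunits.

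Summed markers of other cell types also differed between the genotypes. In stroma 3 of 8 listed smooth muscle markers (Myh11, Acta2 and Tagln) were called lower in KO, beside 0.756% of all genes. Myh11 and Tagln were listed through WT stroma alone, where they are high, so their listing favoured a difference. No other marker was called between genotypes, beside 0.120% of all genes in epithelium and 1.51% in stroma. In the epithelium table the summed average of endometrial stroma markers (11 of 12 listed) was 119 in KO and 92.4 in WT, that of pericyte markers (2 of 7) was 6.62 in KO and 4.18 in WT, and that of blood endothelium markers (5 of 12) was 8.50 in KO and 7.56 in WT. Smooth muscle markers (10 of 12) went the other way, at 19.3 in KO and 29.8 in WT, as did simple epithelium markers (16 of 16), at 179 in KO and 205 in WT, and macrophage markers (5 of 10), at 9.23 in KO and 9.84 in WT, although the median log2 ratio of the macrophage markers was 0.61. In the stroma table simple epithelium markers (6 of 16) summed to 11.3 in KO and 4.96 in WT. There endometrial stroma markers (10 of 12) summed to 71.8 in KO and 88.8 in WT, smooth muscle markers (8 of 12) to 9.87 in KO and 20.3 in WT, and blood endothelium markers (3 of 12) to 3.12 in KO and 3.90 in WT. Pericyte markers (2 of 7) stood at 2.62 in KO stroma and 2.51 in WT stroma, and the macrophage marker listed (1 of 10) at 1.50 in KO and 2.05 in WT. Of the endometrial stroma markers 9 were higher and 2 lower in KO epithelium (median log2 ratio 0.25), and 5 were higher and 5 lower in KO stroma, with a median of -0.09. The part of cell makeup in the matrix ratios was not tested, and markers outside the tables carry no value.

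Further genes of the same processes, from lists of non-members, gave no call between genotypes in either compartment. Of all genes, 0.120% were called in epithelium and 1.51% in stroma. In epithelium 8 of 11 listed genes of collagen processing and crosslinking and 8 of 12 further basement membrane genes had a higher value in KO, with median log2 ratios of 0.15 and 0.20. Of 9 matrix turnover genes 6 were higher and of 16 integrin adaptors and partners 7 were, with medians of 0.07 and -0.02. In stroma the medians were -0.22 for 3 processing genes, 0.08 for 5 basement membrane genes, -0.29 for 6 turnover genes and 0.07 for 8 integrin partners. Of 7 listed matrix turnover genes, 3 were called lower in KO epithelium than in KO stroma, beside 4.45% of all genes. Between WT epithelium and WT stroma 6 of 7 were called lower, beside 15.7% of all genes. Of these 6, Adamts1 and Adamts5 were listed through stroma alone. Adamts1, a protease of large proteoglycans, was 2.88-fold lower in KO epithelium and 4.70-fold lower in WT epithelium than in stroma, and the metalloprotease inhibitor Timp3 was 2.28-fold lower in KO and 2.96-fold lower in WT. The matricellular protein gene Smoc2 was 5.82-fold lower in KO epithelium and 5.99-fold lower in WT epithelium. Sdc4, a syndecan that works beside integrins, was 2.79-fold higher in KO epithelium and 5.10-fold higher in WT epithelium than in stroma, and the integrin partner Cd9 was 1.91-fold higher in KO and 2.41-fold higher in WT. Each of these contrasts was called in both genotypes in the authors' deposited tables. However, Adamts1 and Smoc2 were listed through stroma alone in both genotypes, and Sdc4 in WT through epithelium alone. Their listing favoured a difference there, so these calls are no support of their own. Of 9 integrin adaptors and partners listed in WT, 1 was called higher and 2 lower in epithelium, beside 13.1% and 15.7% of all genes. Cd47 was 2.20-fold lower and Lims1 2.14-fold lower. Sparcl1 was called lower in epithelium, by 1.90-fold in KO and 2.79-fold in WT, as was Ntn1, by 2.21-fold and 2.47-fold. Timp2 was 1.71-fold and 2.07-fold lower, and Ddr2 2.47-fold lower in WT. Cd47, Lims1, Ntn1 and Ddr2 were listed through stroma alone.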

How the data were processed

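Visium libraries of 4 KO and 4 WT uteri were summarised by the authors into 4 tables. Per the file headers these hold the averages of both groups, the log2 fold change between them and an FDR, here called the adjusted p-value. These averages behave as UMI sums over a size factor that differs by table, so averages are compared within a table only. GRCm38 is the build that the submitters' processing notes name. The aligner, the naming of spots and the statistical test were not given in the sources used here, and any gene used to name spots would be no finding between compartments.

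UMI sums were recovered by solving each table's size factor sums from the deposited averages and log2 values. The products were within 0.01 of whole numbers for 100% of values, and 0 sums differed between tables. Recovery was checked on simulated tables. Ratios use these sums without a pseudocount, with 95% Clopper-Pearson intervals for counting error only. PCR duplicates are removed by UMIs, but spread between animals is not covered. Counts of calls use the deposited FDR.

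Members and lists were chosen with earlier results of these data known. Named were called members, up to 3 per role group by UMIs, and up to 4 per genotype table by size of ratio (25 genes), and other members are given as ratios, except 1 that is counted but not reported here. Python 3.11.15, NumPy 2.4.6, SciPy 1.17.1, pandas 2.3.3 and matplotlib 3.10.9 were used.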

Additional observations from a re-analysis of the deposited data

How the results depend on the processing

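At an FDR under 0.01 the called members numbered 0 between genotypes in stroma (Col6a4 was lost), 1 between compartments in KO and 5 between compartments in WT. With a minimum absolute log2 ratio of 1, and likewise without the lowest 25% of genes by UMIs, they numbered 1 between compartments in KO and 5 in WT. The count of 0 between genotypes in epithelium was the same under these 3 settings. The authors' log2 values with their pseudocount, and centring on the median gene, moved none of the 108 member ratios outside its counting interval and none of the 38 medians (all members and role groups) by more than the median half-width of its members' intervals. Keeping genes with an average above 1 in both groups moved 3 medians, those of integrin beta subunits in KO (0.13) and of basement membrane collagens (-0.19) and of nidogens and perlecan (-0.24) in WT between compartments, since it leaves fewer genes. No paired analysis was possible because a table holds 1 value per pool, which also left no replicate to omit. The planned look at protein sequence features was not run, as no protein table was used here. Depth was lowest in WT stroma, with a median of 95 UMIs per gene listed against WT epithelium.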
